A study of Mus musculus with 7 samples.

Results

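Plasma cells, the antibody-secreting end stage of the B lineage, were picked out of mouse whole bone marrow by their transcripts. A kept barcode counted as a plasma cell (a member) with at least 5 Jchain, 2 Mzb1 and 2 Xbp1 UMIs (unique molecular identifiers, each standing for 1 captured transcript) and with no Siglech and no Ms4a1 UMI. Kept barcodes had at least 300 detected genes and under 10% mitochondrial UMIs. The rule found 226 members among 54669 kept cells (0.413%). The members were chosen by these measured UMI counts, so the levels of Jchain, Mzb1 and Xbp1, and the absence of Siglech and Ms4a1, are a description and no finding. At the edge of the rule, 3 members had exactly 5 Jchain UMIs, 7 had exactly 2 Mzb1 UMIs and 15 had exactly 2 Xbp1 UMIs. Just outside it, 85 cells failed only because Ms4a1 was above 0 (45 of them with 1 UMI), 62 only on Jchain, 17 only with Mzb1 at 1 and 4 only with Xbp1 at 1.

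The marrow came from spine, hips, femur and tibia after lysis of red cells, and was sequenced as 7 droplet libraries of 4 pools in which hashtag antibodies marked 20 samples. By the prefix of their names, 6 samples formed the group HRO, 3 HRY, 4 WTO and 3 WTY, while HR.7 and HR.AE stand alone. The labels give no genotype, treatment, age or meaning for these prefixes, and only for HRO.5 and HRO.6 does the series text state a condition, TET2-mutated and chronic; these 2 are called chronic here. Pool WBM_1 combined HRO.5, HRO.6, HRY.4, WTO.3 and WTY.3. Pool WBM_2 combined HR.AE, HRO.7, HRO.8, HRO.9 and WTO.4. Pool WBM_3 combined HR.7, HRO.10, HRY.5, HRY.6, WTY.4 and WTY.5. Pool WBM_4 combined HRO.11, HRO.12, WTO.5 and WTO.6. The HRO group here is HRO.7 to HRO.12. Nothing says that each hashtag is a separate animal, so p-values measure only the spread between these samples.

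Libraries held 25343305 to 95553827 UMIs. The most barcodes shared by any pair of libraries were the 2078 of WBM_3a and WBM_3b, of which the copy with fewer UMIs was dropped; the next pair shared 51. By hashtag, 155 members were singlets, 48 were doublets (21.2%, against 16.8% of kept cells) and 23 had no hashtag (10.2%, against 4.53%), 17 of these in WBM_1. Members had a median of 12266 UMIs, against 4797 in kept cells. Neutrophil transcripts (a list of 10 genes) made up over 5% of the UMIs outside immunoglobulin genes in 37 of 226 members, 17 of them hashtag doublets, and results that move with these cells are also given without them.

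A B cell that becomes a plasma cell silences the B cell program of Pax5 through the repressor Prdm1 (Blimp-1) and turns on Irf4 and Xbp1. The spliced form of Xbp1 drives the unfolded protein response, which enlarges the endoplasmic reticulum and its chaperones, so that the cell can fold and export antibody. Heavy chain constant genes set the antibody class (IgM, IgG or IgA), the J chain joins IgM and IgA into polymers, and plasma cells of the bone marrow depend on niche signals such as APRIL through Tnfrsf17 (BCMA).

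The endoplasmic reticulum stress elements that Xbp1 and Atf6 are known to use were searched on both strands of 32851 RefSeq promoter windows (GRCm38.p6, 250 bases before to 50 after the start). The element ERSE, CCAAT and CCACG with any 9 bases between them, was in 0.119% of all windows and in the windows of 9 of the 25 unfolded protein response genes that matched (Calr, Canx, Creld2, Derl3, Dnajc3, Hsp90b1, Hspa5, Pdia6 and Syvn1). The element ERSE-II, ATTGG and CCACG with any 1 base between them, was in 0.0365% of all windows and in those of Dnajb11 and Herpud1. The element UPRE, TGACGTGG, was in 0.676% of all windows and in none of this list. Shown are the 250 bases before the start of the chaperone gene Hspa5 (BiP; chr2:34771840-34772089, + strand), the degradation gene Derl3 (chr10:75893148-75893397, + strand) and the membrane protein gene Herpud1 (chr8:94386179-94386428, + strand), because each holds 1 copy of an element; capitals mark ERSE in Hspa5 and, read on the opposite strand, in Derl3, and ERSE-II in Herpud1. The elements end 46, 137 and 41 bases before the start.
Hspa5: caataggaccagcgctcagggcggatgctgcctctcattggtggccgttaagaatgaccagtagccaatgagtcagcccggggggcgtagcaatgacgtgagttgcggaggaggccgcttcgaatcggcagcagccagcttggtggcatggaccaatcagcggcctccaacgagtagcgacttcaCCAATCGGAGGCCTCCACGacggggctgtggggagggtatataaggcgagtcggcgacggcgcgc
Derl3: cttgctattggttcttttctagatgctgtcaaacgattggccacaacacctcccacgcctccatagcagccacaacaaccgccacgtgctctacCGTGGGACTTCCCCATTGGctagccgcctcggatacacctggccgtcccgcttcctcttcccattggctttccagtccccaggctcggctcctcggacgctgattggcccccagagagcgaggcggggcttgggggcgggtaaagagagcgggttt
Herpud1: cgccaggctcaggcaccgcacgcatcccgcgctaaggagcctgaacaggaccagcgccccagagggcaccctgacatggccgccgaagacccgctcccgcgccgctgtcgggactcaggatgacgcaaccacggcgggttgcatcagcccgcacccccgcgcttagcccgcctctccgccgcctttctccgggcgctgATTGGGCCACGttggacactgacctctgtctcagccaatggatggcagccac

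The second set of sequences is that of the V genes most often paired in 1 member, since these carry the antibody repertoire result given further on. Shown are the last 300 bases of the coding sequence of each (GENCODE vM21, GRCm38), with the last in-frame cysteine codon, near the junction with D or J, in capitals. Ighv11-2 lies at chr12:114048241-114048812 (- strand), Igkv14-126 at chr6:67896172-67896642 (+ strand), Ighv1-55 at chr12:115208095-115208591 (- strand) and Igkv8-30 at chr6:70117061-70117620 (- strand).
Ighv11-2: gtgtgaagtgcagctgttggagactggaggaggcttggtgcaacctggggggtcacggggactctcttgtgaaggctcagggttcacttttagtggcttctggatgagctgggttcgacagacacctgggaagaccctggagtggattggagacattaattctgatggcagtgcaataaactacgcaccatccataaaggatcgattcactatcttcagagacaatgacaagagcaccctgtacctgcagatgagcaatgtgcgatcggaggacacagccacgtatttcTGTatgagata
Igkv14-126: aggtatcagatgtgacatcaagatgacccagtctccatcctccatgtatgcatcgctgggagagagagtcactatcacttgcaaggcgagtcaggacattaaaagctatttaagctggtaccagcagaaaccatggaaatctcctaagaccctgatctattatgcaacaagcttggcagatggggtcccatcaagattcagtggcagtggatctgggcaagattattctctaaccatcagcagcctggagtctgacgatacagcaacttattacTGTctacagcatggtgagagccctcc
Ighv1-55: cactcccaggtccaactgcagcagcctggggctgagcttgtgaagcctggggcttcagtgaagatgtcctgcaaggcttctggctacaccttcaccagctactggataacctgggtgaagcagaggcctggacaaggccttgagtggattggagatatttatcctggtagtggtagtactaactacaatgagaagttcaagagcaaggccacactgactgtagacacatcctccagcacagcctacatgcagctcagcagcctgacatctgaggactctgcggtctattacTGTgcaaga
Igkv8-30: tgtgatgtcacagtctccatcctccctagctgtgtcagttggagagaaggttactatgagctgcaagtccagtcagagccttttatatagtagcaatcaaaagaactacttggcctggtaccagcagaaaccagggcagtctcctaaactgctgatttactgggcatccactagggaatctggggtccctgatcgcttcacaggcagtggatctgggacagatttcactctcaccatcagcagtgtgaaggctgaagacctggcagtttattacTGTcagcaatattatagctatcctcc

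The label was checked on genes the rule did not use, as a description with no test. Levels are in CPM, the UMIs of a gene summed over the members of a sample and scaled to the same total UMI count, in the 9 samples with at least 5 members. Syndecan-1 (Sdc1), the surface marker of plasma cells, stood at 125 ± 50.1 CPM (SD, n = 9 samples) in members and at 3.05 CPM in the other kept cells, and 170 members (75.2%) had a UMI of it. By sample its level was 67.5 CPM in HRO.5, 69.5 in HRO.12, 96.4 in HRO.6, 107 in WTY.3, 110 in HRO.9, 135 in HRO.11, 136 in HRY.4, 192 in HRO.7 and 212 in WTO.4. All 9 were above the highest level of the other cells of a sample (7.67 CPM). The APRIL receptor Tnfrsf17 stood at 70.2 ± 34.6 CPM against 0.821 CPM, with the lowest member level in HRO.5 (22.5 CPM) and the highest in WTO.4 (119 CPM). Irf4 stood at 99.1 ± 36.3 CPM against 8.23 CPM, and Slamf7 at 124 ± 49.9 CPM against 11.4 CPM. Prdm1 stood at 58.1 ± 41.1 CPM against 3.80 CPM, was higher in 8 of 9 samples and had no UMI in the 5 members of HRY.4. Of 18 identity genes measured, 16 were at least 2-fold higher in members, against 4.71% of 5606 genes. Genes of the rule were not taken out of the gene lists, and any of them is high by the choice of members.

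B cell genes differed in how far they were lost. Pax5, the factor that holds B cell identity, had no UMI in any of the 9 samples, against 322 CPM in the 612 mature B cells (Ms4a1 and Ighd positive, no Jchain). The class II gene H2-Aa stood at 45.2 ± 28.2 CPM against 2176 CPM in mature B cells, while its partner Cd74, the invariant chain, stood at 2468 ± 947 CPM against 7567 CPM there. Markers of plasmacytoid dendritic cells, which also carry Jchain RNA (452 CPM in the 804 such cells), summed to 153 to 737 CPM in members and to 136 to 469 CPM in other cells of the same samples. The surface enzyme Cd38 was low in members (5.62 ± 8.66 CPM, against 142 CPM in mature B cells).

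**Figure D1:**
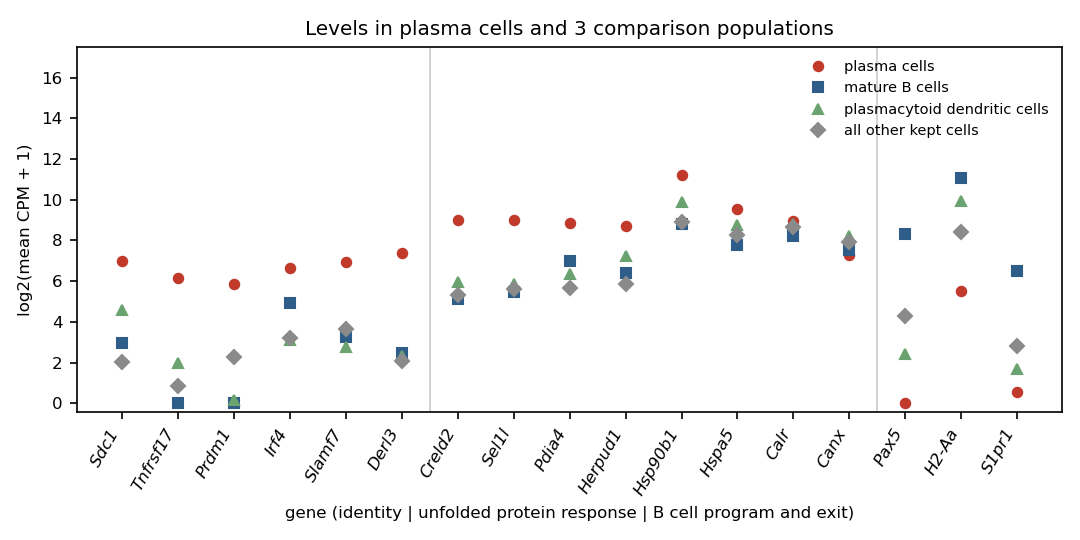
Mean level, as log2(CPM + 1) on the vertical axis, of 17 genes in plasma cells (mean of 9 samples), mature B cells, plasmacytoid dendritic cells and all other kept cells. Sdc1 (125 CPM) and Tnfrsf17 (70.2 CPM) stand highest in plasma cells, and Pax5 is at 0 there.

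Genes of the secretory machinery stood above the other cells to very different degrees. Of 28 unfolded protein response genes measured, 19 were at least 2-fold higher in members and 18 were higher in every one of the 9 samples. The list includes Xbp1 itself, which the rule used. The degradation gene Derl3 stood at 169 ± 54.9 CPM against 3.27 CPM (51.5-fold), Creld2 at 516 ± 384 CPM (13.4-fold), the degradation adaptor Sel1l at 509 ± 284 CPM (10.5-fold) and the disulfide isomerase Pdia4 at 456 ± 244 CPM (9.06-fold). Herpud1 stood at 425 ± 133 CPM (7.40-fold), the chaperone Hsp90b1 at 2347 ± 1231 CPM (4.87-fold) and Hspa5 at 735 ± 298 CPM (2.42-fold). Hspa5 ranged from 333 CPM in HRO.11 to 1354 CPM in HRO.12, the 2 samples of pool WBM_4 with at least 5 members. Over 5% neutrophil-list RNA was found in 4 of 8 members of HRO.11 and 0 of 7 of HRO.12. The lectin chaperones, whose windows both hold an ERSE, were nearer the other cells: Calr was 1.24-fold and Canx 0.623-fold of their level, or 2.27-fold and 1.12-fold with immunoglobulin genes left out of the totals. Genes of the Perk arm were also near the other cells, with Atf4 at 0.948-fold (1.71-fold with immunoglobulin left out) and Ddit3 (Chop) at 0.781-fold (1.34-fold).

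Because immunoglobulin transcripts took a median of 51.5% of a member's UMIs (5.39% to 74.2%), the CPM of every other gene depends on whether these are counted in the total. The median over 5606 genes was a log2 ratio of -1.03, and -0.20 with immunoglobulin genes left out of the totals. Without them, 23 of 28 unfolded protein response genes and 29 of 38 translocation and secretion genes were at least 2-fold higher, against 10.1% of all genes, where the count for secretion was 15 of 38 with them. Signal peptidase and translocon genes stood high in the second list, with Spcs3 at 4.97-fold, Ssr4 at 4.20-fold and Sec11c at 3.48-fold in total-UMI CPM. The thioredoxin-like Txndc5 stood at 895 ± 308 CPM (17.3-fold) and Prdx4 at 408 ± 112 CPM (5.72-fold).

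Among the 15 genes with the largest ratio of members to other cells (at least 100 CPM in members, immunoglobulin genes left out) were genes with no textbook place in the lineage. The sulfotransferase Chst1 stood at 132 ± 60.2 CPM (68.3-fold), the adhesion molecule Epcam at 126 ± 65.7 CPM (46.2-fold), Oosp1 at 134 ± 73.4 CPM (29.0-fold) and the eosinophil granule gene Prg2 at 719 ± 845 CPM (25.6-fold). Prg2 ranged from 121 CPM in HRO.6 to 2873 CPM in HRO.7. Ly6k, a Ly6 family surface protein, ranged from 11.2 CPM in HRO.5 to 1658 CPM in HRY.4 and was concentrated in few cells: 41 of 226 members had a UMI, and 19 members with at least 10 UMIs held 89.1% of them, spread over 7 samples.

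Of the 25 survival and niche genes, 19 were measured, and 6 were at least 2-fold higher and 6 at least 2-fold lower, where 264 and 2916 of all 5606 genes were. With immunoglobulin genes left out of the totals, 8 were higher and 1 lower, where 565 and 971 of all genes were. The receptor Tnfrsf13b (TACI) stood at 137 ± 110 CPM (3.02-fold) and the costimulator Cd28 at 37.7 ± 23.0 CPM (5.35-fold). The marrow homing receptor Cxcr4 stood at 56.3 ± 30.4 CPM in members, below the 131 CPM of the other cells in all 9 samples, or in 6 of 9 with immunoglobulin genes left out of the totals. S1pr1, which guides exit into blood, stood at 0.478 CPM, against 90.0 CPM in mature B cells. A UMI of it was found in 0.885% of members and in 0.896% of neutrophils, and whether these are background was not tested. The antiapoptotic gene Mcl1 stood at 248 ± 57.4 CPM (0.906-fold, or 1.69-fold with immunoglobulin left out).

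The question of how many plasma cells each marrow held was addressed with shares of the kept singlets of a hashtag sample, with exact 95% Clopper-Pearson intervals that cover counting error only. HRO.6 had 33 members among 3139 cells (1.05%, interval 0.725% to 1.47%) and HRO.9 had 49 among 4831 (1.01%). HRO.5 stood at 0.772% (9 members), HRO.12 at 0.572% (7), HRO.11 at 0.512% (8), WTO.4 at 0.406% (14) and WTO.3 at 0.362% (4). WTY.3 stood at 0.264% (8), HRY.4 at 0.221% (5), HRO.7 at 0.163% (9), WTO.6 at 0.159% (2) and HRO.8 at 0.120% (3). HR.AE, HRY.6, WTY.5 and HR.7 had 1 member each. No member was found in HRO.10, HRY.5, WTO.5 or WTY.4, which allows shares of up to 0.172%, 0.271%, 0.301% and 0.323% (3 counts of the total); their exact intervals reach 0.211%, 0.333%, 0.370% and 0.397%. Pool WBM_3 held 6 members in all.

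No comparison of shares passed its test. HRO samples had 0.397% ± 0.378 (SD, n = 6) and WTO samples 0.232% ± 0.188 (n = 4; exact two-sided permutation p = 0.457, adjusted over 5 comparisons 0.571). HRY (0.0965% ± 0.113, n = 3) and WTY (0.110% ± 0.137, n = 3) gave an exact permutation p of 1, HRO and HRY 0.298 and WTO and WTY 0.4. Within pools, HRO had a mean of 0.432% and WTO.4 0.406% in WBM_2, and HRO 0.542% and WTO 0.0795% in WBM_4. The chronic samples had 0.912% ± 0.198 (n = 2) and the other WBM_1 samples 0.282% ± 0.0723 (n = 3), with no overlap; the exact permutation p was 0.1, the smallest that 2 against 3 samples allow, and 0.5 after adjustment. That difference, 0.630 percentage points, was 0.329 when hashtags were normalised within each cell. It was 0.0600 (p = 0.7, exact permutation test) when cells under 2000 UMIs were left out and the others thinned to 2000 UMIs. In HRO.5, HRO.6 and WTO.3 this left out 573 of 1166, 981 of 3139 and 564 of 1106 cells, with 2, 8 and 3 members remaining. The difference between HRO and WTO was 0.0417 percentage points without HRO.9, against 0.165 with it, and -0.0349 after thinning.

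**Figure D2:**
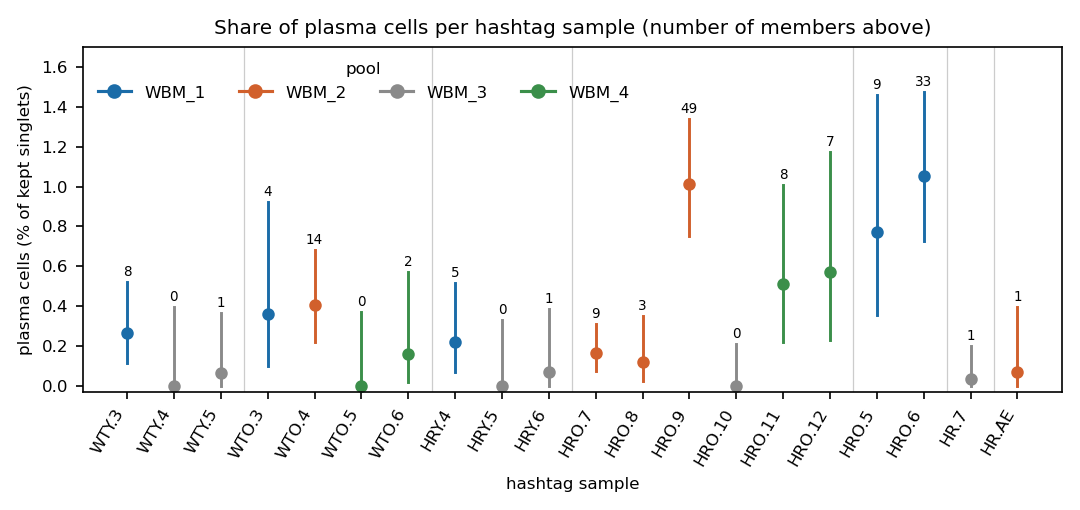
Plasma cells as a percentage of the kept singlets (vertical axis) of each of the 20 hashtag samples (horizontal axis, by group), coloured by pool, with exact 95% intervals as lines and the number of members above. HRO.6 (1.05%) and HRO.9 (1.01%) stand highest, and 4 samples have no member.

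The antibody class of each member was taken from the heavy chain constant gene with most UMIs, which the rule did not use. IgM led with 145 of 226 members (64.2%, interval 57.5% to 70.4%), followed by IgA with 48 (21.2%, 16.1% to 27.2%), IgG with 32 (14.2%, 9.89% to 19.4%) and IgD with 1. Of the IgG members, 10 had Ighg3, 8 Ighg2b, 8 Ighg2c and 6 Ighg1. The calls were clear: the leading gene had a median of 99.95% of the heavy chain UMIs, and 2 members were under 80%. Kappa was the light chain of 218 members. Of the 8 lambda members, 7 were IgA.

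The class makeup differed widely between samples. HRO.9 had 43 IgM members of 49, HRO.11 had 8 of 8 and HRO.6 had 24 of 33. HRO.7 had 3 IgM and 6 IgA members of 9, WTO.4 had 6 IgM of 14, and 4 of the 8 members of WTY.3 were IgG. Without HRO.9, IgM made up 57.6% of the members. At least 10 members were found in only 3 samples (HRO.9, HRO.6 and WTO.4), each of another group. With at least 5 members, a minimum taken up for this test after the data were seen, chronic (n = 2) could be compared with HRO (n = 4). IgM made up 64.1% ± 12.1 (SD) of the members in chronic and 69.6% ± 30.1 in HRO, IgA 13.1% ± 2.86 and 25.3% ± 30.2, and IgG 22.7% (12.1% in HRO.6 and 33.3% in HRO.5) and 5.10% ± 6.77. None of these differed beyond the spread: the exact two-sided permutation p was 0.867, 0.733 and 0.133, where 15 splits allow no p below 0.0667, and adjusted over 4 shares it was 0.867, 0.867 and 0.533.

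**Figure D3:**
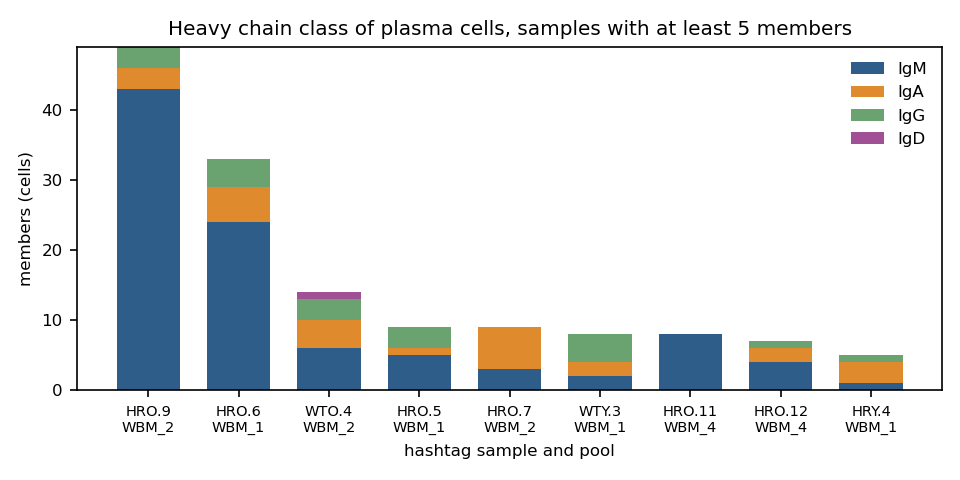
Number of plasma cells (vertical axis) of each heavy chain class, stacked, in the 9 hashtag samples with at least 5 members (horizontal axis, with pool). IgM fills 43 of 49 members in HRO.9 and 8 of 8 in HRO.11, and IgA 6 of 9 in HRO.7.

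V genes were read from the same 3′ counts, which reach the V segment poorly. A heavy V gene (at least 3 UMIs and 50% of the V UMIs) was called in 111 of 226 members, in 87 of 102 in pool WBM_2 but in 7 of 94 in pool WBM_1, so V genes cannot be compared between pools. Both chains were called in 104 members, which showed 64 pairs, 50 of them in 1 member each. For these pairs the light gene was called among kappa V genes alone, so lambda V UMIs did not count. With lambda V genes counted too, Igkv8-30 was called in 9 members and Igkv14-126 in 14, whatever their heavy V gene. The lambda gene Iglv1 was then called in 60 of 192 members. The sequences printed above belong to the leading pairs. Ighv1-55 with Igkv8-30 was found in 14 members, all IgM and all of pool WBM_2: 8 in HRO.9, 1 in WTO.4, 1 in HR.AE and 4 that were not singlets. Ighv11-2 with Igkv14-126 was found in 11 members, all IgM, in 3 pools: 5 in HRO.9, 3 in HRO.6, 1 in HRO.11, 1 in WTO.4 and 1 that was not a singlet. As background, the second pair is known from B-1 cells that bind phosphatidylcholine.

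These V genes were also measured in kept cells outside the members that had under 20 heavy chain UMIs, as a level of free RNA; cells rich in antibody RNA that failed the rule were left out of it. In WBM_2, Ighv1-55 and Igkv8-30 stood at 163 and 421 CPM in members and at 0.0101 and 0.00505 CPM in those cells. In WBM_1 Igkv8-30 stood at 1.65 CPM in members, while Igkv14-126 stood at 181 CPM there. Related genes limit the calls: Ighv11-2 is 98.9% identical to Ighv11-1, Ighv1-55 is 95.4% identical to Ighv1-53, Igkv8-30 is 93.4% identical to Igkv8-21 and Igkv14-126 is 91.5% identical to Igkv14-111. The counts hold no junction sequence, so a shared pair does not show a shared clone. A lambda V transcript, Iglv1, had at least 10 UMIs in 72 of 218 kappa members, in 16 of 32 in HRO.6 and 10 of 48 in HRO.9.

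IgA and IgM members of the same sample were then compared, a comparison chosen after the data were seen. Counts were summed per class and sample in the 6 samples with at least 2 members of each, and the quasi-likelihood test of edgeR was used, with the sample as a block and Benjamini-Hochberg adjustment. Of 543 genes, 9 passed (1.66%), 2 higher in IgA (0.368%) and 7 lower (1.29%); Igha and Ighm are the class itself. Vpreb3, known from the pre-B cell receptor complex, rose in IgA members by a log2 fold of 4.09 (SE 0.697, adjusted p = 0.0127) and was higher in 6 of 6 samples. Its IgA and IgM levels were 410 and 18.9 CPM in HRO.9, 418 and 11.7 in WTO.4, 260 and 0 in HRO.7, 233 and 28.4 in HRO.6, 49.9 and 0 in WTY.3, and 37.0 and 0 in HRO.12. The surface protein gene Ly6c2 fell by 2.58 (SE 0.556, adjusted p = 0.0408) and was lower in 6 of 6 samples, from 722 against 3124 CPM in HRO.6 to 9.26 against 595 CPM in HRO.12. Ly6c2 also had a UMI in 88.5% of neutrophils. Summed over all members with at most 5% neutrophil-list RNA, it stood at 413 CPM in IgA and 1738 CPM in IgM members. The other falls, Lcn2, Ltf, Ngp and Anxa1, include genes of neutrophil granules, and 27 of 145 IgM and 7 of 48 IgA members had over 5% neutrophil-list RNA. V genes were counted and are not named here.

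Without the members over 5% neutrophil-list RNA, 4 samples remained (HRO.12, HRO.6, HRO.9 and WTO.4) and 20 of 737 genes passed (2.71%), 2 higher (0.271%) and 18 lower (2.44%); 5 of the 9 genes passed in both fits. Vpreb3 rose by 3.97 (SE 0.623, adjusted p = 0.00450). Chst1 had no UMI in the IgA members of any of the 4 samples, while the IgM members had 133, 72.5, 165 and 178 CPM in HRO.12, HRO.6, HRO.9 and WTO.4 (adjusted p = 0.0187, edgeR). Oosp1 fell by 5.24 (SE 0.950, adjusted p = 0.00895) and the stem cell antigen gene Ly6a by 3.76 (SE 0.640, adjusted p = 0.00648). The degradation adaptor Sel1l fell by 2.26 and the amino acid transporter chain Slc3a2 by 2.23. The class I genes B2m and H2-K1 fell by 1.82 and 1.29, 2 of 7 genes tested of the interferon gamma and antigen presentation list. The granule genes Elane and Prtn3 were still among the falls. The samples left out of this fit had a few members of each class and did not all share these directions. Ly6a stood at 2845 CPM in IgA and 979 CPM in IgM members of HRO.7, and at 1946 and 383 CPM in WTY.3. Sel1l stood at 399 and 164 CPM in WTY.3. Oosp1 stood at 55.8 CPM in IgA and 0 CPM in IgM members of HRO.7, and at 0 and 164 CPM in WTY.3. Summed over all members with at most 5% neutrophil-list RNA, with or without a hashtag sample, Ly6a stood at 1541 CPM in IgA and 1503 CPM in IgM members.

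Counts of cells are given for some of these genes and for Ccr10, without a test, and were chosen after their values were seen. The mucosal homing receptor Ccr10 had a UMI in 18 of 48 IgA members (37.5%, interval 24.0% to 52.6%), 6 of 145 IgM members (4.14%) and 1 of 32 IgG members, and in 0.406% of neutrophils. It was higher in IgA than in IgM members in 5 of 6 samples and at 0 in both classes of HRO.6. Vpreb3 had a UMI in 33 of 48 IgA and 31 of 145 IgM members. Chst1 had one in 8 of 48 IgA, 106 of 145 IgM and 21 of 32 IgG members. Median depth was 10300 UMIs in IgA, 13734 in IgM and 10394 in IgG members, and the share with Chst1 was 65.6% in IgG (interval 46.8% to 81.4%) and 16.7% in IgA members (7.48% to 30.2%). The intervals here pool the cells of all samples and cover counting error only, not the spread between samples.

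**Figure D4:**
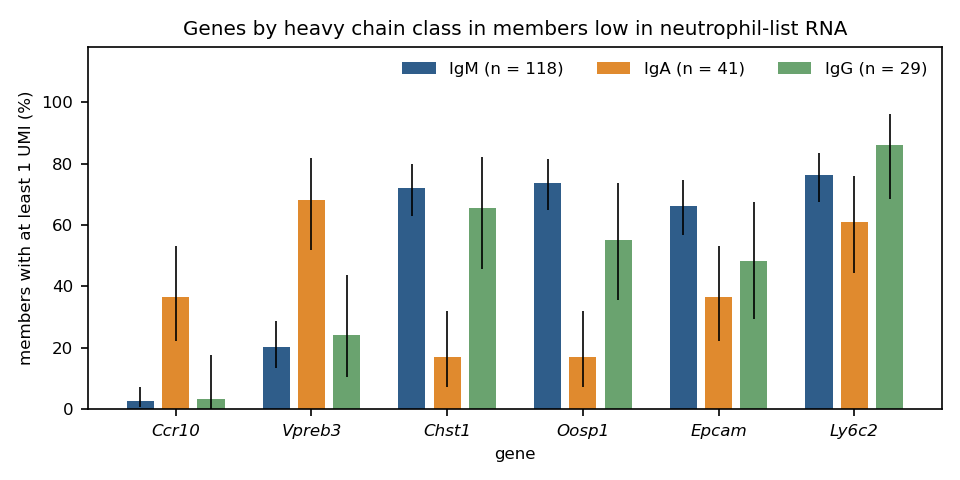
Percentage of members with at least 1 UMI (vertical axis) of 6 genes (horizontal axis) in IgM, IgA and IgG plasma cells with at most 5% neutrophil-list RNA. Lines are exact 95% intervals over cells pooled from all samples, which cover counting error only. Ccr10 (36.6%) and Vpreb3 (68.3%) stand highest in IgA members, and Chst1 and Oosp1 (both 17.1%) lowest there.

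A member counted as cycling with a UMI in at least 2 of Mki67, Top2a, Birc5, Cdk1, Ube2c and Ccna2. This held for 49 of 226 members (21.7%, interval 16.5% to 27.6%) and for 23 of 189 members (12.2%) with at most 5% neutrophil-list RNA. It held for 12.3% after thinning to 3000 UMIs, with the members under that depth left out. Cycling members were deeper (median 20614 against 11165 UMIs) and gave less of their RNA to immunoglobulin (31.2% against 54.7%; 34.4% against 54.9% among members with little neutrophil RNA). Of the 49, 26 had over 5% neutrophil-list RNA, against 11 of 177 other members, and 17 had at least 10 UMIs of Elane and Mpo together, genes of early neutrophil granules, against 0 of 177. By class, 30 of 145 IgM, 11 of 48 IgA and 8 of 32 IgG members were cycling; these shares were not tested. In samples with at least 5 members, 21.7% ± 0.714 (SD, n = 2) were cycling in chronic and 25.3% ± 27.5 (n = 4) in HRO (exact permutation p = 0.867).

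Cycling members were compared with the other members of the same sample, also a comparison chosen after the data were seen (edgeR, sample as a block, 7 samples). Of 1286 genes, 422 passed (32.8%), 248 higher (19.3%) and 174 lower (13.5%), and myeloid genes were among the largest rises (Ms4a3, Trem3, Ctsg and Elane). Without members over 5% neutrophil-list RNA, 48 of 752 genes passed (6.38%), 23 higher (3.06%) and 25 lower (3.32%), and 46 of them had passed with the same sign in all members. In this fit of 8 samples, 5 had 1 cycling member. The 1 of HRO.6 had 500 UMIs of Elane and Mpo together, and 1 of those of HRO.9 had 851, so granulocyte precursor RNA remained in this fit. Ms4a3 and Ctsg were still called, by 6.02 and 6.07, but were higher in 3 and 2 of 8 samples, and the part of granulocyte precursor RNA in the other changes was not tested. The values that follow are from this second fit.

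Of the cell cycle list, 7 of 8 genes tested rose, some of them used to define the cycling members. Genes not used for that included the histone Hist1h2ap (log2 fold 3.83, SE 0.533, adjusted p = 0.00114), Hmgb2 (2.99), Stmn1 (3.30) and Tuba1b (2.51). The glycolytic gene Gapdh rose by 1.31 (SE 0.317, adjusted p = 0.0210) and was higher in 8 of 8 samples. Of 10 identity genes tested, 3 passed, all lower (Pou2af1, Ell2 and Cd79a), and of 7 survival and niche genes 3 passed, all lower (Ly6k, Ly6a and Zbtb20). The secretory lists were near or below the share over all genes: 1 of 20 unfolded protein response genes passed (Sel1l, by -1.60) and 0 of 29 translocation and secretion genes. Pou2af1, the B cell coactivator, fell by 2.22 (SE 0.455, adjusted p = 0.00856), and Ell2, the elongation factor that favours the secreted form of heavy chain RNA, by 1.82 (SE 0.417, adjusted p = 0.0164). Ly6k fell by 5.51 (SE 0.775, adjusted p = 0.00114), with 0 in the cycling members of 7 samples, most of which had 1 cycling member. Only 41 of 226 members had a Ly6k UMI, so a 0 in 1 member is common. In WTO.3 Ly6k was higher in cycling members, at 150 CPM against 112 CPM in the others. The other members of the 8 samples had 0 to 1207 CPM of Ly6k. The channel-like gene Tmem176b fell by 2.55 (SE 0.517) and Prg2 by 2.43 (SE 0.489), each lower in 7 of 8 samples. No constant region gene passed in this fit (10 tested, median log2 fold -2.44).

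Between groups of samples, the only comparison of gene expression that enough members allowed was chronic (HRO.5 and HRO.6) against HRO (HRO.7, HRO.9, HRO.11 and HRO.12), with at least 5 members a sample. Of 1978 genes, 12 passed (0.607%), 7 higher (0.354%) and 5 lower (0.253%), by the same test (edgeR) without a block, and 253 had an unadjusted p under 0.05. No gene of the identity (17 tested), unfolded protein response (25) or secretion (36) lists passed. On simulated counts this fit recovered 112 of 200 genes changed 4-fold, so such changes can be missed. The chronic samples are all of pool WBM_1 and the HRO samples of other pools, so pool and condition cannot be told apart in this fit.

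The falls were immediate early genes, which code for AP-1 factors and rise within minutes of stress or stimulation. Fos stood at 33.7 CPM in HRO.5 and 39.7 in HRO.6, and at 502 in HRO.7, 635 in HRO.9, 500 in HRO.11 and 682 in HRO.12 (log2 fold -3.76, SE 0.422, adjusted p = 0.00765). Jun was at 45.0 CPM in HRO.5 and 22.7 in HRO.6, against 504 to 909 CPM in HRO (log2 fold -4.39, SE 0.492). Egr1 had no UMI in the chronic members and stood at 67.5 to 182 CPM in HRO. Fosb and Junb were lower too. The chronic and HRO levels of these genes did not overlap, but the genes were chosen by the test on these same samples, so this adds no support. With cells with Ms4a1 UMIs let in and pool as a term, the direction turned for Jun (log2 fold 3.88), Egr1 (1.16) and Fosb (0.396), but not for Fos. None of the genes that turned passed, and of 4279 genes only Ighg2c did (edgeR). That fit ties chronic to HRO only through WTO.3 of WBM_1 and WTO.4 of WBM_2, so it cannot settle the direction. Low levels were also found in the members of the other WBM_1 samples: Fos at 22.7 CPM in HRY.4, 40.2 in WTY.3 and 64.3 in WTO.3, and Egr1 at 0 in all 3. The other cells of WBM_1 had 2.56 to 8.22 CPM of Egr1, and WTO.4 members, of pool WBM_2, had 88.0 CPM of Fos.

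Most of the rises were also found in the rest of pool WBM_1. Rpl41, a ribosomal protein gene, stood at 8009 and 5840 CPM in the chronic members, at 1603 to 2847 CPM in HRO, and at 6773 to 8072 CPM in the other members of WBM_1. Rps28 stood at 2835 and 1419 CPM in chronic, at 416 to 663 CPM in HRO and at 1511 to 1928 CPM in the rest of WBM_1. The globin gene Hbb-bs stood at 439 and 310 CPM, at 0 to 32.5 CPM in HRO and at 409 to 804 CPM in the rest of WBM_1, where the other cells held 4310 to 8638 CPM of it. Usmg5, Ier3ip1 and Hba-a1 rose too. Ighg2c, the IgG2c constant gene, stood at 10326 CPM in HRO.5 and 2231 in HRO.6, at 0 to 12.9 CPM in HRO, at 0 to 482 CPM in the other members of WBM_1 and at 24844 CPM in WTO.4 (log2 fold 9.90, SE 1.01, adjusted p = 0.00765). Only 8 of 226 members were of the IgG2c class, 2 in HRO.6, 1 in HRO.5 and 3 in WTO.4 among the singlets. The other cells had 10.2 to 114 CPM of Ighg2c in WBM_1 and at most 1.59 CPM outside it. Without HRO.5 no gene passed, and without HRO.6, 1 did. Without HRO.7, HRO.9 or HRO.11, 3, 5 and 5 genes passed, and without HRO.12, 22. Among members with at most 5% neutrophil-list RNA (HRO.5, HRO.6, HRO.7, HRO.9 and HRO.12), 18 of 1625 genes passed (1.11%), 13 higher (0.8%) and 5 lower (0.308%), and 10 of them were the same genes with the same sign. Of the 13 rises, 4 were neutrophil-list genes (S100a8, S100a9, Ltf and Retnlg, of 9 tested, with a list median log2 fold of 2.38) and 3 were erythroid genes (of 4 tested); their part in the other rises was not tested.

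HRO and WTO could be compared only when cells with Ms4a1 UMIs were let in, a rule added after the data were seen. With pool as a term, 3 of 4279 genes passed (0.0701%, edgeR), Ighd, Ighg2c and 1 V gene, all lower in HRO; the 2 WTO samples include WTO.4, which holds the 1 IgD member and 3 IgG2c members. Without pool as a term none passed, and 152 had an unadjusted p under 0.05.

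**Figure D5:**
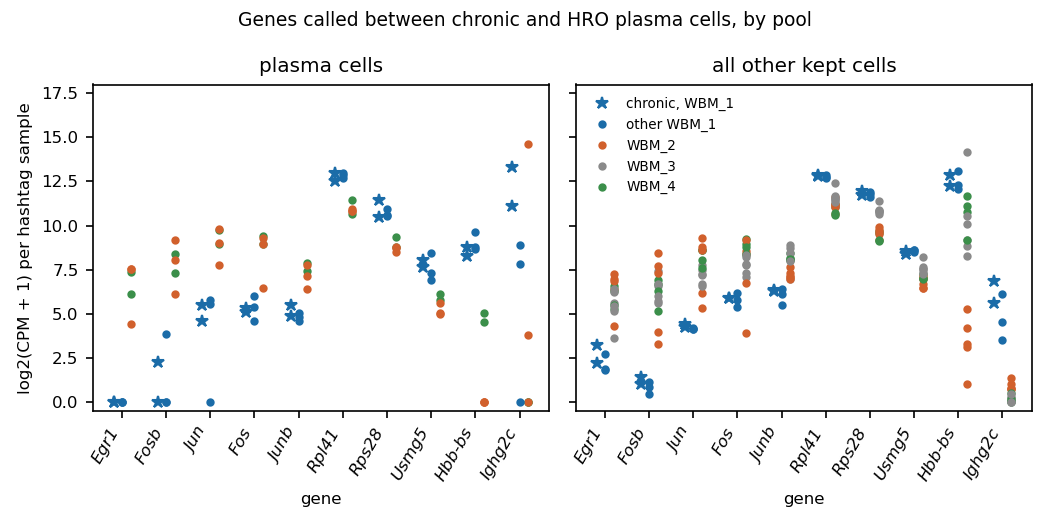
Level, as log2(CPM + 1) per hashtag sample on the vertical axis, of 10 of the 12 genes called between chronic and HRO plasma cells, in plasma cells (left) and all other kept cells (right), coloured by pool; stars are the chronic samples. For Fos, Rpl41 and Hbb-bs the other WBM_1 samples lie beside the stars, as in the values given above.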

How the data were processed

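Deposited UMI counts, not normalised, were used for 31053 genes and 7 libraries. Per the file headers, Cell Ranger 3.0.0 wrote the matrix of WBM_1 and 3.1.0 the others; per the submitters' processing notes bcl2fastq, Seurat and mm10 were also used. How barcodes were called and which annotation was used is not given in the sources used here. The deposited counts of hashtags were assigned with HTODemux (Seurat 5.3.0, positive quantile 0.99, centred log-ratio across cells).

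Cells are not replicates: member counts were summed per hashtag sample and tested with edgeR 4.0.16 (R 4.3.3; filterByExpr, TMM, quasi-likelihood, Benjamini-Hochberg at 0.05), with DESeq2 1.42.0 as an alternative. The plan asked for 10 members a sample, which left 3 samples, so 5 were used. Cycling and IgA against IgM comparisons, and the class and cycling shares of chronic against HRO, were added after the data were seen. The tests were checked on simulated counts with 200 genes changed 4-fold. Recovered were 112 (56%) for chronic against HRO, 180 (90%) for cycling and 174 (87%) for IgA against IgM. False calls were 5.88%, 2.70% and 1.14% of the genes called. Shares were compared with exact permutation tests. Hashtag doublets stay among the members except in values per sample; no other doublet caller was run.

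The members and gene lists were chosen with earlier results of these data known. Named per comparison were the 10 largest rises and 10 largest falls with at least 20 CPM, and up to 6 genes a list; V genes were not named there. Descriptions against other cells name list genes and the 15 largest ratios.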

Additional observations from a re-analysis of the deposited data

Results flagged for a closer look

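In 25 groups of samples checked for a value far from the others, 2 stood out; chance alone gives about 1 in 20. Among HRO members, Ighg2c stood at 12.9 CPM in HRO.9 and at 0 in the other 3 samples. Rps28 stood at 663 CPM in HRO.12, against 449 CPM in the next highest HRO sample.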

How the results depend on the processing

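Few members limit every comparison: 9 samples had at least 5. Tests of class and cycling between groups with at least 10 members, fits with at least 10 or 20 members and a pool term for chronic against HRO under the rule as given were not run, because too few samples or no estimable contrast remained. Shares of HRO minus WTO reversed to -0.0349 percentage points with cells under 2000 UMIs left out and the others thinned to 2000 UMIs. Shares of HRY minus WTY reversed to 0.0680 with hashtags normalised within each cell and to 0.00585 without the Ms4a1 criterion. Leaving out 1 sample moved HRO minus WTO between 0.0417 and 0.245, and HRY minus WTY between -0.0753 and 0.0637. The cycling share was 12.3% thinned to 3000 UMIs and 12.2% without members over 5% neutrophil-list RNA. Chronic against HRO gave 71 genes with no filter, 22 by DESeq2, and, without the Ms4a1 criterion, 2 (group alone) or 1 (with pool); leaving out 1 sample gave 0 to 22. In the fit with pool, Usmg5 (-0.0402), Rpl41 (-0.0184), Egr1 (1.16), Fosb (0.396) and Jun (3.88) reversed, and none of these passed. Cycling gave 697 with no filter, 278 with 1 member on each side, 48 without members over 5% neutrophil-list RNA and with 1 member on each side, where S100a8 reversed (-0.0412), and 172 to 503 leaving out 1 sample (172 without HRO.9, 196 without HRO.6). IgA against IgM gave 33 with no filter, 16 by DESeq2, 20 without members over 5% neutrophil-list RNA, and 4 (without WTO.4) to 14 (without HRO.6) leaving out 1 sample. With no replicate block in place of the sample block, cycling gave 136 genes and IgA 2. Over all settings, the genes named in the chronic comparison kept direction and call in 92 of 165 checks and direction alone in 68; for cycling the call and direction held in 471 of 494 checks and for IgA in 167 of 203, where no gene reversed. The causes were not tested.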

Other observations

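Some cells outside the rule carried much IgM RNA and little Jchain. Of the 62 cells that failed the rule only on Jchain, 25 had at least 100 heavy chain UMIs, and 24 of these were IgM, 13 in HRO.6 and 19 in pool WBM_1. Among such IgM cells and IgM members together, 12 of 36 in HRO.6 had under 5 Jchain UMIs (33.3%, interval 18.6% to 51.0%), against 0 of 43 in HRO.9 (upper bound 8.22%), with median heavy chain UMIs of 1732 and 3022. Jchain is a gene of the rule, the intervals cover counting error only, and each value is that of 1 sample. Such cells were 2 of 8 in WTO.4, 1 of 3 in WTO.3, 1 of 3 in WTY.3, 1 of 5 in HRO.12 and 1 of 9 in HRO.11. In HRO.6, 9 of those 12 had at least 10 UMIs of Iglv1.

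Of 13 type I interferon genes measured, none was at least 2-fold higher than in other cells and 8 were at least 2-fold lower, near the share of all genes (2916 of 5606 lower). With immunoglobulin genes left out of the totals, 2 were higher and 6 lower, where 565 and 971 of all 5606 genes were. Ifi27l2a stood at 98.2 against 524 CPM and Oas3 at 2.44 against 33.3 CPM. The class I light chain B2m, of the interferon gamma and antigen presentation list, stood at 4849 against 1758 CPM, higher in all 9 samples. Of 18 genes of that list measured, 3 were at least 2-fold higher and 6 at least 2-fold lower, where 264 and 2916 of all 5606 genes were. With immunoglobulin genes left out of the totals, 4 were higher and 3 lower.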
